A study of Mus musculus with 47 samples.

Results

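The genes described here make, sense and move cholesterol and fatty acids, and they were followed through 47 mouse RNA sequencing libraries of dendritic cells (DCs) and their progenitors. They were chosen by gene symbol from a fixed list of 32, and 32 of 32 were found among the 21000 genes of the files. Of these, 7 encode enzymes of the mevalonate part of the pathway (Acat2, Hmgcs1, Mvk, Pmvk, Mvd, Idi1 and Fdps) and 11 encode enzymes from squalene to sterols (Fdft1, Sqle, Lss, Cyp51, Tm7sf2, Msmo1, Nsdhl, Hsd17b7, Ebp, Sc5d and Dhcr7). Another 5 encode regulators (Srebf1, Srebf2, Insig1, Insig2 and Scap), 4 encode transport proteins (Stard4, Abca1, Abcg1 and Npc1), 3 encode fatty acid enzymes (Fasn, Scd2 and Acaca), and 2 encode the liver X receptors (Nr1h2 and Nr1h3). All 32 passed the filter on low counts in every comparison below.

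The progenitor series runs through the monocyte-dendritic cell progenitor (MDP), the common dendritic cell progenitor (CDP) and the precursors already committed to one lineage, pre-cDC1 or pre-cDC2, to the conventional subsets cDC1 and cDC2. Pre-cDC1s from bone marrow cultures with the cytokine Flt3 ligand came as d+32 (deficient in the enhancer 32 kb from Irf8), d+32het (heterozygous for that deletion), d+56het (heterozygous for deletion of the enhancer at 56 kb) and wild type (WT). Transduced cDC1s, cultured from Lin– cells, were d+56 or d+32 cells given IRF8 and WT cells given MSCV, a retroviral vector whose label names no insert. WT MDPs, CDPs, pre-cDC1s, cDC1s, pre-cDC2s and cDC2s were also taken from culture, and primary WT MDPs, CDPs and pre-cDC1s were taken directly from bone marrow and pre-cDC1s and cDC1s from spleen. The labels give neither age nor sex, and no allele beyond the enhancer deletions. By title, 15 groups held 3 libraries and 2 groups, primary CDP and primary splenic cDC1, held 1.

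Cells make cholesterol from acetyl-CoA through mevalonate, farnesyl diphosphate and squalene. When sterols in the endoplasmic reticulum are scarce, SCAP escorts the SREBP transcription factors, encoded by Srebf1 and Srebf2, to the Golgi, where they are cleaved, and the released part enters the nucleus and switches on genes of synthesis and uptake. When sterols are plentiful, the INSIG proteins hold SCAP back, and oxysterols activate the liver X receptors, which raise the export pumps ABCA1 and ABCG1. In DCs and macrophages, sterol content bears on membrane order and on inflammatory signalling.

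Promoters are shown for Hmgcs1, the gene called in the most comparisons in the same direction, for Idi1 and Lss, with large differences between cultured and primary cells, and for Mvd, the gene whose stage difference was called as unequal between culture and marrow. The windows come from RefSeq on GRCm38.p6 and run from 250 bases before to 50 bases after the gene start. Capitals mark a sterol response element core (TCACNCCAC, N being any base) and CCAAT boxes (ATTGG), each on either strand, and in these 4 windows no match overlapped another.
Hmgcs1: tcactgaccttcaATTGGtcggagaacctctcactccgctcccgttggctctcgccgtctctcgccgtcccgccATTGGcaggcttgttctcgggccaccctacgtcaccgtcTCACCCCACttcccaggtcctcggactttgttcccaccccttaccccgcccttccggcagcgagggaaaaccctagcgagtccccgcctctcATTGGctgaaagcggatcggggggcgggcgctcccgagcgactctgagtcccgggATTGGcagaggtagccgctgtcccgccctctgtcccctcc
Idi1: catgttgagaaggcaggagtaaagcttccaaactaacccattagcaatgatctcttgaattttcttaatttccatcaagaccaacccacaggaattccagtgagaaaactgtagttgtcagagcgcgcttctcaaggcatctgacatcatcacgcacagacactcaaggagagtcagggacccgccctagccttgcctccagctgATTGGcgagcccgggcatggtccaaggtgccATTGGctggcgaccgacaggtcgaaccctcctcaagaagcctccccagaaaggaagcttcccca
Lss: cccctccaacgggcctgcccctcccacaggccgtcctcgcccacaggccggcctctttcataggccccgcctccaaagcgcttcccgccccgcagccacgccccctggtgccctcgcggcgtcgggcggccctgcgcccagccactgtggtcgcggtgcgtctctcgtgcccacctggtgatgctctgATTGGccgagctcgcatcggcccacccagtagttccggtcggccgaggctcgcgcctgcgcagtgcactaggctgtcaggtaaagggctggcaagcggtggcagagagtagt
Mvd: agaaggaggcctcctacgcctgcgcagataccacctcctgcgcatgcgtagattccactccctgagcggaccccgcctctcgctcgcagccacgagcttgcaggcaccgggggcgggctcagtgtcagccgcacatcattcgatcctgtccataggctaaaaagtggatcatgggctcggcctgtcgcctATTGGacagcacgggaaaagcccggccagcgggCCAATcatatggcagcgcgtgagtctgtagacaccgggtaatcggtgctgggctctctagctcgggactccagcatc

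The Hmgcs1 window lies at chr13:119690101-119690400 on the plus strand and held 1 sterol response core and 4 CCAAT boxes. The Idi1 window, chr13:8885356-8885655 on the plus strand, held 2 CCAAT boxes. The Lss window, chr10:76531355-76531654 on the plus strand, held 1. The Mvd window, chr8:122443373-122443672 on the minus strand, held 2. Windows were found for 25 of the 32 genes, among them 15 of the 18 synthesis enzymes. The sterol response core was present for 1 of the 25, Hmgcs1, against 1.44% of the 27025 genes in the table. Variants of this core were not searched, so its absence does not show that a promoter lacks a sterol response element. The CCAAT box was present for 19 of 25, or 76%, and for 14 of the 15 enzymes, or 93.3%, against 41.1% of all genes in the table. A DR4 element, the usual liver X receptor site, was searched only as an exact repeat of AGGTCA after 4 bases. It was matched in windows of 0 of the 25 genes, against 0.0148% of all genes. At so low a share 0 matches tell little, and sites with other letters were not counted. A match describes these letters in this window, and its part in the results was not tested.

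Library totals ran from 14660655 to 43084068 expected counts, with a median of 28884353, and levels are given as CPM, counts scaled to the size of the library. The deposited labels number 3 replicates where the design text speaks of duplicates, and they do not say that replicates came from separate cultures or animals, so a p-value here weighs a difference against library-to-library spread that may be technical. In 4 libraries, replicates 1 and 2 of the cultured cDC1s without vector and of the cultured pre-cDC2s, the title names one cell type and the file name the other, and these were left out, which leaves those groups at 1 library each. Irf8 ran from 469 to 535 CPM in d+32, 1122 to 1318 CPM in d+32het and 925 to 1104 CPM in d+56het pre-cDC1s, against 3312 to 3601 CPM in WT pre-cDC1s. It ran from 3506 to 3887 CPM in d+56 and 1212 to 1559 CPM in d+32 cDC1s given IRF8, against 3450 to 3842 CPM in WT cDC1s given MSCV, and endogenous and vector transcripts cannot be told apart in these counts. Because the samples are bulk, fewer cells of a type and less RNA per cell cannot be told apart either.

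The most calls among the cholesterol genes were in cultured against primary cells of the same label, 16 of 32 in MDPs and 15 of 32 in pre-cDC1s. In these comparisons 8.28% and 21.9% of all genes tested were called. Of the 32 genes, 23 were called in at least 1 of 17 comparisons, and the 9 that never were are Mvk, Tm7sf2, Nsdhl, Ebp, Dhcr7, Scap, Abca1, Acaca and Nr1h3. The share of all genes called at least once was not computed, and single comparisons called up to 33.1% of all genes tested. Hmgcs1, the cytosolic HMG-CoA synthase, was called in 6 comparisons, higher each time. Fdps, the farnesyl diphosphate synthase, was also called in 6, higher in 2 and lower in 4. Fdft1 (squalene synthase), Cyp51 (lanosterol demethylase) and Srebf2 were called in 5 each. The comparisons share libraries, so these counts are not independent of each other. By the GENCODE annotation of GRCm38, Hmgcs1 lies at chr13:119690379-119708260, Fdps at chr3:89093588-89101959, Fdft1 at chr14:63145150-63179578, Cyp51 at chr5:4081145-4104746 and Srebf2 at chr15:82147181-82205379, and the counts are over whole genes.

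**Figure D1:**
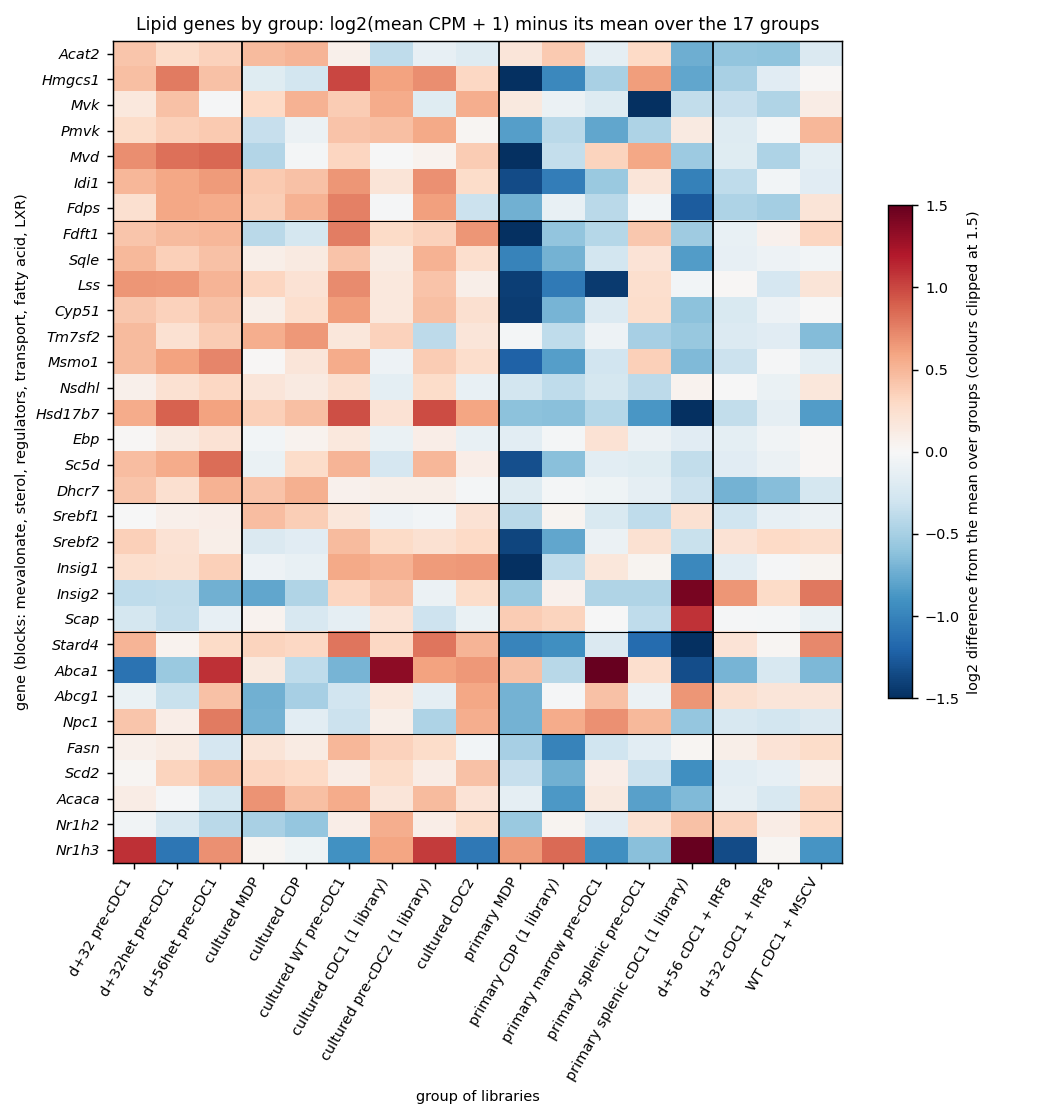
Each row is 1 of the 32 genes, grouped by role, and each column is 1 of the 17 groups. Colour is log2 of the group's mean CPM plus 1, minus the average of that value over the groups, on a scale limited to 1.5 in either direction. Primary MDPs are the darkest blue (lowest) column for Hmgcs1, Mvd, Fdft1, Cyp51 and Srebf2, and the Abca1 and Nr1h3 rows rest on low counts.

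Cultured MDPs were set against MDPs taken directly from bone marrow. Of the 32 genes, 16 were higher in cultured MDPs and 0 lower, where 8.28% of the 12043 genes tested were called in this comparison. The median log2 difference over the 32 was 0.76, with 26 positive, against a median of 0 over all genes tested. The 18 synthesis enzymes all had positive differences, with a median of 1.15, and 10 of them passed the test: 4 of 7 in the mevalonate part and 6 of 11 in the sterol part. The summed level of the 18 enzymes was 1099 to 1290 CPM in cultured MDPs, against 535 to 621 CPM in primary MDPs.

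In the mevalonate part, Hmgcs1 had 113, 147 and 174 CPM in cultured MDPs, against 63.3, 44.7 and 55.5 CPM in primary MDPs. Every cultured library lay above every primary one, and the log2 fold change was 1.39 (SE 0.18, edgeR adjusted p = 0.000965). Fdps had 399, 367 and 434 CPM in cultured MDPs, against 185, 188 and 191 CPM in primary MDPs, a log2 fold change of 1.06 (SE 0.10, adjusted p = 8.25e-05). Idi1, the isomerase that makes dimethylallyl diphosphate, had 60.2, 65.8 and 81.4 CPM in cultured MDPs, against 17.2, 19.5 and 23.4 CPM in primary MDPs, a log2 fold change of 1.76 (SE 0.22). Mvd, the mevalonate diphosphate decarboxylase, had 11.7, 9.86 and 9.99 CPM in cultured MDPs, against 4.6, 2.11 and 2.9 CPM in primary MDPs, a log2 fold change of 1.68 (SE 0.26). The groups did not overlap for any of these 4 genes, but neither did they for Tm7sf2, Nsdhl, Hsd17b7, Dhcr7 and Acaca, which were not called. Here and below, the share of all genes without overlap was not computed. Acat2, Mvk and Pmvk did not pass the test, at log2 values of 0.28, 0.14 and 0.47. Acat2 has a close neighbouring copy, Acat3, among the genes of the files, and the counting could have split reads between them.

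In the sterol part, Lss, the lanosterol synthase, had 20.1, 21.2 and 26.4 CPM in cultured MDPs, against 8.97, 3.63 and 5.7 CPM in primary MDPs, a log2 fold change of 1.86 (SE 0.35, adjusted p = 0.00844). Fdft1 had 55.3, 51.8 and 62.1 CPM in cultured MDPs, against 17.9, 22.2 and 17.6 CPM in primary MDPs, a log2 fold change of 1.53 (SE 0.15). Cyp51 had 49.2, 47.1 and 52.1 CPM in cultured MDPs, against 13.7, 16.8 and 19.6 CPM in primary MDPs, a log2 fold change of 1.54 (SE 0.16). For each of these 3 enzymes the lowest cultured library was more than the highest primary one. Sqle (squalene epoxidase), Msmo1 (the C4 methyl oxidase) and Sc5d (the C5 desaturase) also rose, by 1.11, 1.28 and 1.27 on the log2 scale. Sc5d lost its call when cultured replicate 1 or 3 was left out, with an adjusted p of up to 0.0683 over all settings tried. Hsd17b7 (1.18), Tm7sf2 (0.67), Dhcr7 (0.60), Nsdhl (0.47) and Ebp (0.09) did not pass.

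The regulators rose in part. Srebf2, the SREBP most tied to cholesterol synthesis, had 76.7, 77 and 93.6 CPM in cultured MDPs, against 38.1, 33.7 and 37.6 CPM in primary MDPs, a log2 fold change of 1.15 (SE 0.15, adjusted p = 0.00112). Insig1, itself an SREBP target, had 14.2, 12.1 and 16 CPM in cultured MDPs, against 5.57, 2.35 and 3.16 CPM in primary MDPs, a log2 fold change of 1.90 (SE 0.37, adjusted p = 0.0101). Srebf1, more tied to fatty acid genes, averaged 435 CPM in cultured MDPs and 237 CPM in primary MDPs (n = 3 each), a log2 fold change of 0.85. Insig2 (-0.24) and Scap (-0.36) did not pass.

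Among the transport genes, 1 of 4 rose. Stard4, a cytosolic carrier of sterols, had 42.9, 55 and 52.3 CPM in cultured MDPs, against 18.9, 17.9 and 21.1 CPM in primary MDPs, a log2 fold change of 1.35 (SE 0.23). Npc1, which passes cholesterol out of lysosomes, had a log2 difference of -0.01, and Abcg1 had -0.05. Of the fatty acid genes, Fasn, the fatty acid synthase, averaged 90.6 ± 5.8 CPM in cultured MDPs and 55.4 ± 2.5 CPM in primary MDPs (SD, n = 3 each) and rose by 0.68 on the log2 scale. Scd2, a stearoyl-CoA desaturase, rose by 0.66, but its call was lost without any 1 of the 6 libraries. Its adjusted p reached 0.142 over all settings tried. Neither liver X receptor gene passed.

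**Figure D2:**
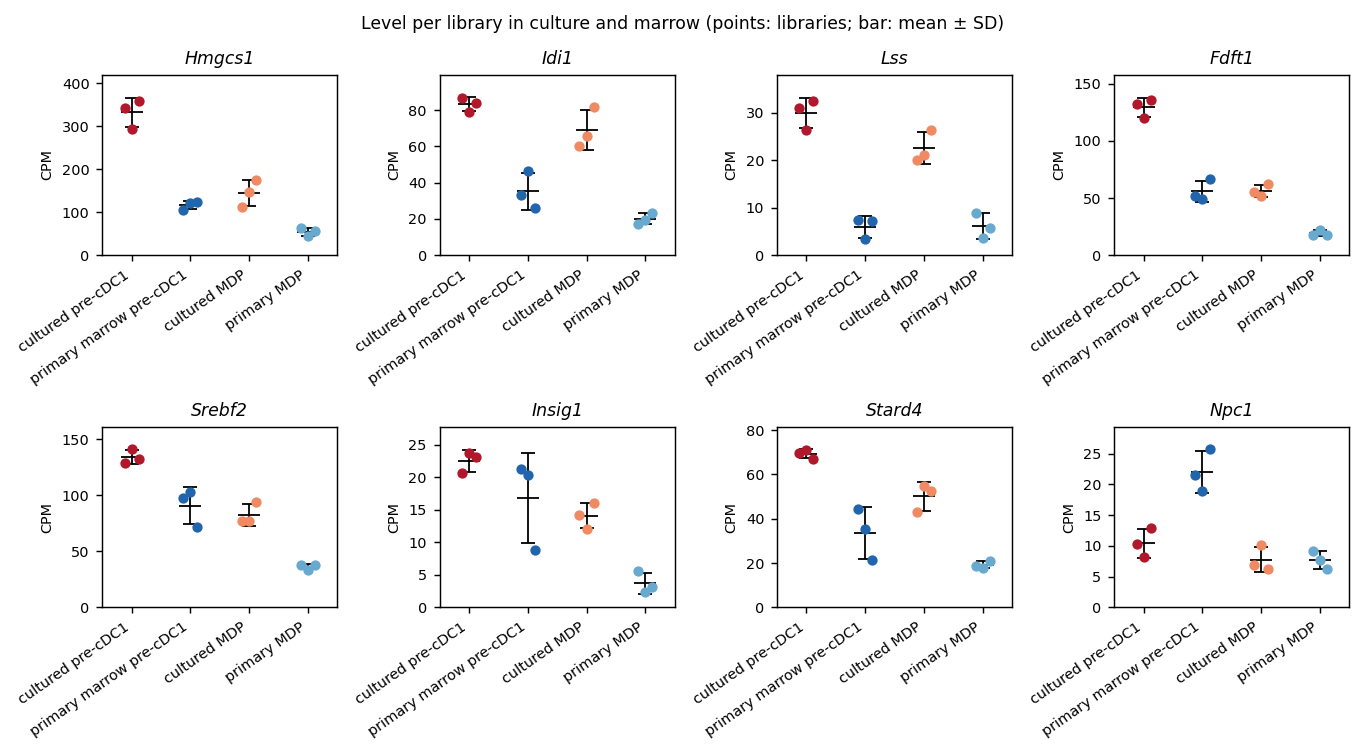
Points are libraries and bars the mean ± SD in CPM, on axes that start at 0, for 8 genes in cultured pre-cDC1s, marrow pre-cDC1s, cultured MDPs and primary MDPs (3 libraries each). Hmgcs1, Idi1, Lss and Fdft1 are higher in the cultured group of each pair, Insig1 passed the test in the MDP pair and did not pass in the pre-cDC1 pair, and Npc1 is lower in cultured pre-cDC1s than in marrow pre-cDC1s.

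Cultured pre-cDC1s had higher levels of many synthesis enzymes than marrow pre-cDC1s, and lower levels of a pair of transport genes. There were 13 higher and 2 lower among the 32 genes, where 21.9% of the 12043 genes tested were called. The median log2 difference over the 32 was 0.53, against -0.03 over all genes tested. Over the 18 enzymes it was 0.76, with 16 positive, 10 higher and 0 lower, and their summed level was 1517 to 1781 CPM in cultured pre-cDC1s, against 787 to 850 CPM in marrow pre-cDC1s. Mevalonate enzymes made up 4 of the calls and sterol enzymes 6.

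Lss had 30.9, 26.4 and 32.5 CPM in cultured pre-cDC1s, against 7.37, 3.31 and 7.28 CPM in marrow pre-cDC1s, a log2 fold change of 2.30 (SE 0.36, edgeR adjusted p = 0.00123), the largest among the called genes here. Hmgcs1 had 343, 294 and 359 CPM in cultured pre-cDC1s, against 105, 121 and 124 CPM in marrow pre-cDC1s, a log2 fold change of 1.48 (SE 0.18, adjusted p = 0.000288). Fdps had 519, 492 and 565 CPM in cultured pre-cDC1s, against 239, 234 and 233 CPM in marrow pre-cDC1s, a log2 fold change of 1.13 (SE 0.10, adjusted p = 3.16e-05). The cultured and marrow libraries did not overlap for any of these 3. Idi1 rose by 1.21, Fdft1 by 1.19, Cyp51 by 0.83 and Sqle by 0.70 on the log2 scale, each kept under every setting tried. Pmvk, the phosphomevalonate kinase, rose by 1.21, Msmo1 by 0.86 and Hsd17b7, a reductase of the C4 step, by 1.61. Their calls were lost without single libraries: cultured replicate 1 or marrow replicate 2 for Pmvk, cultured replicate 1 or 2 for Msmo1 and any of the 6 for Hsd17b7. Over all settings tried, the adjusted p reached 0.0617 for Pmvk, 0.0514 for Msmo1 and 0.101 for Hsd17b7.

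Srebf2 averaged 134 ± 6.03 CPM in cultured pre-cDC1s and 90.6 ± 16.4 CPM in marrow pre-cDC1s (SD, n = 3 each) and rose by 0.54 on the log2 scale (adjusted p = 0.0258). That call was lost without any 1 of the cultured libraries, with an adjusted p of up to 0.0818 over all settings tried. Insig1 had 20.6, 23.7 and 23.1 CPM in cultured pre-cDC1s and 21.2, 20.4 and 8.87 CPM in marrow pre-cDC1s, where marrow replicate 3 stands low, and its difference of 0.39 did not pass. Srebf1 (0.38), Insig2 (0.76) and Scap (-0.16) did not pass either. Stard4 had 69.8, 71.1 and 67.1 CPM in cultured pre-cDC1s, against 44.6, 35.4 and 21.3 CPM in marrow pre-cDC1s, a log2 fold change of 1.01 (SE 0.23). Fasn rose by 0.78 (SE 0.11).

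A pair of transport genes went the other way. Npc1 had 10.3, 8.13 and 12.9 CPM in cultured pre-cDC1s, against 21.5, 18.9 and 25.7 CPM in marrow pre-cDC1s, and fell by 1.10 on the log2 scale (SE 0.25, adjusted p = 0.00972). Abcg1, which exports cholesterol to lipoproteins, had 23, 21.5 and 25 CPM in cultured pre-cDC1s, against 39.6, 47.2 and 30.1 CPM in marrow pre-cDC1s, and fell by 0.78 (SE 0.17, adjusted p = 0.00916). In both genes all marrow libraries lay above all cultured ones. Abca1, the other export pump, averaged 0.888 ± 0.787 CPM in cultured pre-cDC1s and 8.15 ± 3.25 CPM in marrow pre-cDC1s (SD, n = 3 each), a log2 difference of -3.21 (SE 1.39, adjusted p = 0.127) that did not pass.

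**Figure D3:**
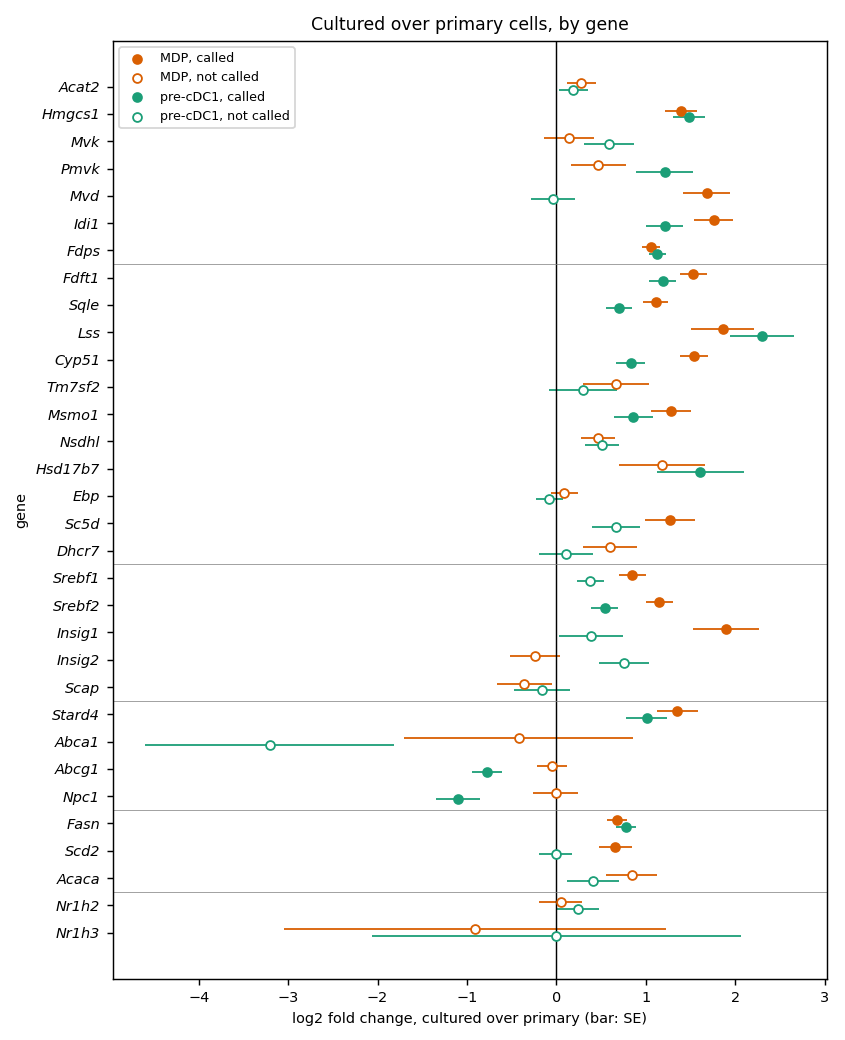
Points are log2 fold changes, cultured over primary, with bars of 1 SE, for each of the 32 genes in MDPs and in pre-cDC1s. Enzymes sit mostly right of 0 in each cell type, Mvd is at 1.68 in MDPs and -0.04 in pre-cDC1s, and Npc1 and Abcg1 lie left of 0 in pre-cDC1s.

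Cultured and primary cells differ in source and in how they were handled, so an effect of growth in culture and an effect of isolation or preparation cannot be told apart. Markers of other cells moved with these differences. The summed cDC1 list (8 genes) was 195 to 217 CPM in cultured MDPs, against 53 to 60.3 CPM in primary MDPs, where Cadm1, Itgae and Tlr3 had 0 counts in all 3 libraries, and 6 of 8 were called higher. It was 1768 to 2096 CPM in cultured pre-cDC1s, against 379 to 410 CPM in marrow pre-cDC1s, with 7 of 8 higher, so the groups labelled pre-cDC1 differed in the markers of that lineage. The cDC2 list (8 genes) was 418 to 522 CPM in cultured pre-cDC1s, against 1308 to 1516 CPM in marrow pre-cDC1s, with 6 of 8 lower. The list of plasmacytoid DC (pDC) markers (6 genes, 5 tested) was 296 to 407 CPM in cultured pre-cDC1s, against 802 to 1761 CPM in marrow pre-cDC1s, with 2 lower. The monocyte list (7 genes) was 142 to 188 CPM in cultured MDPs and 254 to 374 CPM in primary MDPs, and 115 to 154 CPM in cultured pre-cDC1s and 342 to 633 CPM in marrow pre-cDC1s. The neutrophil list (7 genes) was 3.36 to 20.4 CPM in cultured pre-cDC1s and 120 to 165 CPM in marrow pre-cDC1s, and the part of these lists in the results was not tested. Proliferation genes (15) summed to 3625 to 3693 CPM in cultured MDPs and 3495 to 3729 CPM in primary MDPs, with 0 called by edgeR and 1 higher and 0 lower at an unadjusted p under 0.05. They summed to 2293 to 2450 CPM in cultured pre-cDC1s and 2278 to 2481 CPM in marrow pre-cDC1s, with 1 called higher and 5 lower. The highest counts per exonic base were lower for genes with 1 RefSeq transcript (90th percentile 0.891 over 2669 genes) than for genes with more (4.41 over 9030), and 11 of the 32 genes have 1 transcript. Of these, Idi1 reached 0.98, and whether this limits its fold changes was not tested. Of the 8 single-transcript enzymes 4 rose in cultured MDPs and 4 in cultured pre-cDC1s, and of the other 10 enzymes 6 rose in each.

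The difference between pre-cDC1 and MDP was itself compared between culture and marrow. A larger difference in culture was called for 0 of the 32 genes and a smaller one for 1, where 11.4% of the 12043 genes tested were called. That gene was Mvd. Its level was 15.9, 17.2 and 22.2 CPM in cultured pre-cDC1s and 11.7, 9.86 and 9.99 CPM in cultured MDPs, against 18.4, 17.3 and 20.3 CPM in marrow pre-cDC1s and 4.6, 2.11 and 2.9 CPM in primary MDPs. The interaction was -1.73 on the log2 scale (SE 0.36, adjusted p = 0.0136), so the step to pre-cDC1 was smaller in culture. For Insig1 the interaction was -1.51 (adjusted p = 0.0814), for Npc1 -1.09 (0.0715), for Abcg1 -0.73 (0.0813) and for Srebf2 -0.61 (0.0911), none of which passed.

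Within bone marrow, pre-cDC1s were set against primary MDPs. In pre-cDC1s 8 of the 32 genes were higher and 0 lower, where 8.24% of the 13161 genes tested were called, and the median difference was 0.37, against 0 over all genes tested. Fdft1 had 51.6, 49.3 and 66.5 CPM in marrow pre-cDC1s, against 17.9, 22.2 and 17.6 CPM in MDPs, a log2 fold change of 1.52 (SE 0.21, adjusted p = 0.00505). Srebf2 had 97.2, 103 and 72 CPM in marrow pre-cDC1s, against 38.1, 33.7 and 37.6 CPM in MDPs, a log2 fold change of 1.29 (SE 0.20). Mvd rose by 2.52 (SE 0.42) and Insig1 by 2.17 (SE 0.48). Fdft1 and Srebf2 stayed called under every setting tried, and Mvd was lost only where replicates 1 and 2 alone were used (adjusted p = 0.0913). Hmgcs1 (1.08), Cyp51 (1.25), Npc1 (1.5), Abcg1 (1.18) and Insig1 lost their calls without at least 1 library. Over all settings tried, their adjusted p reached 0.0749, 0.065, 0.0793, 0.0978 and 0.114 in that order of genes. Npc1 had 21.5, 18.9 and 25.7 CPM in marrow pre-cDC1s, against 9.1, 7.74 and 6.24 CPM in MDPs. Sqle, at 0.74 (SE 0.22, adjusted p = 0.08), did not pass.

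Splenic pre-cDC1s were set against marrow pre-cDC1s. There was 1 higher and 0 lower among the 32 genes, where 1.88% of the 13161 genes tested were called. Hmgcs1 had 289, 251 and 220 CPM in splenic pre-cDC1s, against 105, 121 and 124 CPM in marrow pre-cDC1s, a log2 fold change of 1.06 (SE 0.19, edgeR adjusted p = 0.0317). The groups did not overlap, but the call was lost in 4 of the 6 fits that left out 1 library. Its adjusted p reached 0.16 over all settings tried. Fdft1 had 117, 86.8 and 96 CPM in splenic pre-cDC1s, against 51.6, 49.3 and 66.5 CPM in marrow pre-cDC1s, a difference of 0.79 that did not pass. Splenic libraries spread widely in some genes: Idi1 averaged 59.6 ± 38.0 CPM and Insig2 61.7 ± 72.4 CPM in splenic pre-cDC1s (SD, n = 3). Splenic replicates 1 and 2 had counts in 10009 and 9901 genes, against 11826 in replicate 3. Without splenic replicate 3, 1152 genes were called over all genes, against 247 with it. What part this unlike detection has in the values was not tested. The B cell list (4 genes) summed to 2.91 to 199 CPM in splenic pre-cDC1s and 0.051 to 1.46 CPM in marrow pre-cDC1s, and its part in the result was not tested.

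In culture, CDPs were set against MDPs. By edgeR, 0 of the 32 genes were called in either direction, where 1.04% of the 13292 genes tested were called. At an unadjusted p under 0.05 there were 2 higher and 0 lower, and DESeq2 called 0, where it called 545 of the 13292 genes. Hmgcs1 averaged 136 ± 18.9 CPM in CDPs and 145 ± 30.4 CPM in MDPs, and Sqle 45.1 ± 4.29 CPM in CDPs and 43.7 ± 4.13 CPM in MDPs (SD, n = 3 each).

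Cultured WT pre-cDC1s were set against cultured CDPs. Of the 32 genes, 9 were higher and 1 lower in pre-cDC1s, where 23.3% of the 13292 genes tested were called, and the median difference was 0.19, against -0.02 over all genes tested. Hmgcs1 had 343, 294 and 359 CPM in pre-cDC1s, against 142, 115 and 151 CPM in CDPs, a log2 fold change of 1.24 (SE 0.16, edgeR adjusted p = 8.57e-05). Fdft1 had 132, 120 and 136 CPM in pre-cDC1s, against 67.6, 56.2 and 63.4 CPM in CDPs, a log2 fold change of 1.00 (SE 0.12, adjusted p = 5.51e-05). For both genes the pre-cDC1 and CDP libraries did not overlap. Of the regulators, Srebf2 rose by 0.61 (SE 0.10), Insig1 by 0.67 (SE 0.13) and Insig2 by 0.74 (SE 0.21). Nr1h2, the widely expressed liver X receptor beta, had 378, 417 and 350 CPM in pre-cDC1s, against 225, 264 and 227 CPM in CDPs, a log2 fold change of 0.63 (SE 0.11, adjusted p = 0.0012). Cyp51, Msmo1 and Fasn rose by 0.34, 0.35 and 0.32. Insig2 and Fasn lost their calls without single libraries, and over all settings tried their adjusted p reached 0.0733 and 0.119. Acat2, the cytosolic acetoacetyl-CoA thiolase, fell by 0.49 (SE 0.11), with 46.1, 33.6 and 44.4 CPM in pre-cDC1s and 53.8, 59 and 55.3 CPM in CDPs. Fdps (0.19), Idi1 (0.18) and Sqle (0.25) did not pass.

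Cultured cDC2s, set against the same CDP libraries, had 8 of the 32 genes higher and 2 lower, where 33.1% of the 13292 genes tested were called. The share called was thus near that of all genes, and the median difference was 0.05, against 0 over all genes tested. Because the CDP libraries are shared, the pre-cDC1 and cDC2 values stand side by side only. Abcg1 had 40.7, 43 and 45.4 CPM in cDC2s, against 18.2, 18.5 and 22.6 CPM in CDPs, a log2 fold change of 1.07 (SE 0.12, adjusted p = 2.92e-05), where the pre-cDC1 value was 0.18 and did not pass. Fdft1 rose by 0.89 (SE 0.12), Nr1h2 by 0.80 (SE 0.11), Insig1 by 0.76 (SE 0.13), Srebf2 by 0.42 (SE 0.10) and Hmgcs1 by 0.54 (SE 0.15). Insig2 (0.69) and Npc1 (0.70) also passed. Hmgcs1, Insig2 and Npc1 lost their calls without single libraries, and over all settings tried their adjusted p reached 0.0622, 0.0762 and 0.118. Fdps had 282, 233 and 227 CPM in cDC2s, against 440, 461 and 438 CPM in CDPs, and fell by 0.90 (SE 0.12, adjusted p = 7.21e-05). Acat2 had 36.5, 31.5 and 34.6 CPM in cDC2s, against 53.8, 59 and 55.3 CPM in CDPs, and fell by 0.76 (SE 0.11). For Fdps and Acat2 every cDC2 library lay below every CDP library. Mast cell and basophil markers (7 genes) summed to 138 to 293 CPM in cDC2s and 1.97 to 5.9 CPM in CDPs, and their part in the result was not tested.

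Cultured cDC1s rest on 1 library, replicate 3, which is assumed to vary like the other groups. Levels of 0 of the 32 genes were higher and of 4 lower than in cultured WT pre-cDC1s, where 2.26% of the 13292 genes tested were called, and 0 to 1 of the 32 were called when 1 pre-cDC1 library was left out. Fdps had 307 CPM in the cDC1 library, against 519, 492 and 565 CPM in pre-cDC1s, and fell by 0.78 on the log2 scale (SE 0.17, adjusted p = 0.037). Msmo1, Cyp51 and Sc5d fell by 0.67, 0.48 and 0.79. With the libraries of conflicting label kept under their titles, 0 of the 32 were called. The cDC1-titled libraries had 489 and 431 CPM of Fdps. The pre-cDC2-titled libraries, which by file name are cDC1s, had 376 and 385 CPM. A fit by file name was not run, so the fit by title does not settle whether Fdps falls.

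The genotype comparisons were made in cultured pre-cDC1s, each against the same 3 WT libraries. In d+32 pre-cDC1s 0 of the 32 genes were higher and 1 lower, where 4.52% of the 11604 genes tested were called, and the median difference was -0.15, against 0 over all genes tested. Fdps had 410, 353 and 342 CPM in d+32 pre-cDC1s, against 519, 492 and 565 CPM in WT pre-cDC1s, and fell by 0.51 (SE 0.10, edgeR adjusted p = 0.0198). The groups did not overlap. The call was kept only without d+32 replicate 1, and in the other 5 fits that left out 1 library the adjusted p reached 0.0862. Hmgcs1 had 305, 165 and 206 CPM in d+32 pre-cDC1s, against 343, 294 and 359 CPM in WT pre-cDC1s, a difference of -0.55 (adjusted p = 0.226) within the spread of the d+32 libraries.

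In d+32het pre-cDC1s 0 of the 32 genes were called by edgeR, where 3.71% of the 11604 genes tested were called. At an unadjusted p under 0.05 there were 1 higher and 2 lower, and DESeq2 called 1, where it called 1293 of the 11604 genes. Fdps had 492, 486 and 417 CPM in d+32het pre-cDC1s, against 519, 492 and 565 CPM in WT pre-cDC1s, a difference of -0.17 (adjusted p = 0.425).

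In d+56het pre-cDC1s 3 of the 32 genes were higher and 2 lower, where 12.4% of the 11604 genes tested were called. The share called was thus near that of all genes, and the median difference was -0.02, against 0.01 over all genes tested. Npc1 had 23, 20.3 and 27.4 CPM in d+56het pre-cDC1s, against 10.3, 8.13 and 12.9 CPM in WT pre-cDC1s, a log2 fold change of 1.18 (SE 0.24, edgeR adjusted p = 0.00922), and it kept its call without any 1 library. Abcg1 had 36.3, 36.3 and 44 CPM in d+56het pre-cDC1s, against 23, 21.5 and 25 CPM in WT pre-cDC1s, a log2 fold change of 0.76 (SE 0.19, adjusted p = 0.0245). Mvd had 26, 27.7 and 27.9 CPM in d+56het pre-cDC1s, against 15.9, 17.2 and 22.2 CPM in WT pre-cDC1s, and rose by 0.57 (SE 0.16). Fasn had 74.8, 46.9 and 76.9 CPM in d+56het pre-cDC1s, against 109, 110 and 116 CPM in WT pre-cDC1s, and fell by 0.74 (SE 0.17, adjusted p = 0.0175). Nr1h2 had 265, 252 and 296 CPM in d+56het pre-cDC1s, against 378, 417 and 350 CPM in WT pre-cDC1s, and fell by 0.49 (SE 0.13, adjusted p = 0.0399). In each of these 5 genes the d+56het and WT libraries did not overlap, but neither did they in several genes without a call, such as Hmgcs1, Fdps and Srebf2. The calls other than that of Npc1 were lost without single libraries. Over all settings tried, the adjusted p reached 0.104 for Abcg1, 0.156 for Mvd, 0.0791 for Fasn and 0.149 for Nr1h2. Fdps (-0.20) and Srebf2 (-0.39, adjusted p = 0.053) did not pass.

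**Figure D4:**
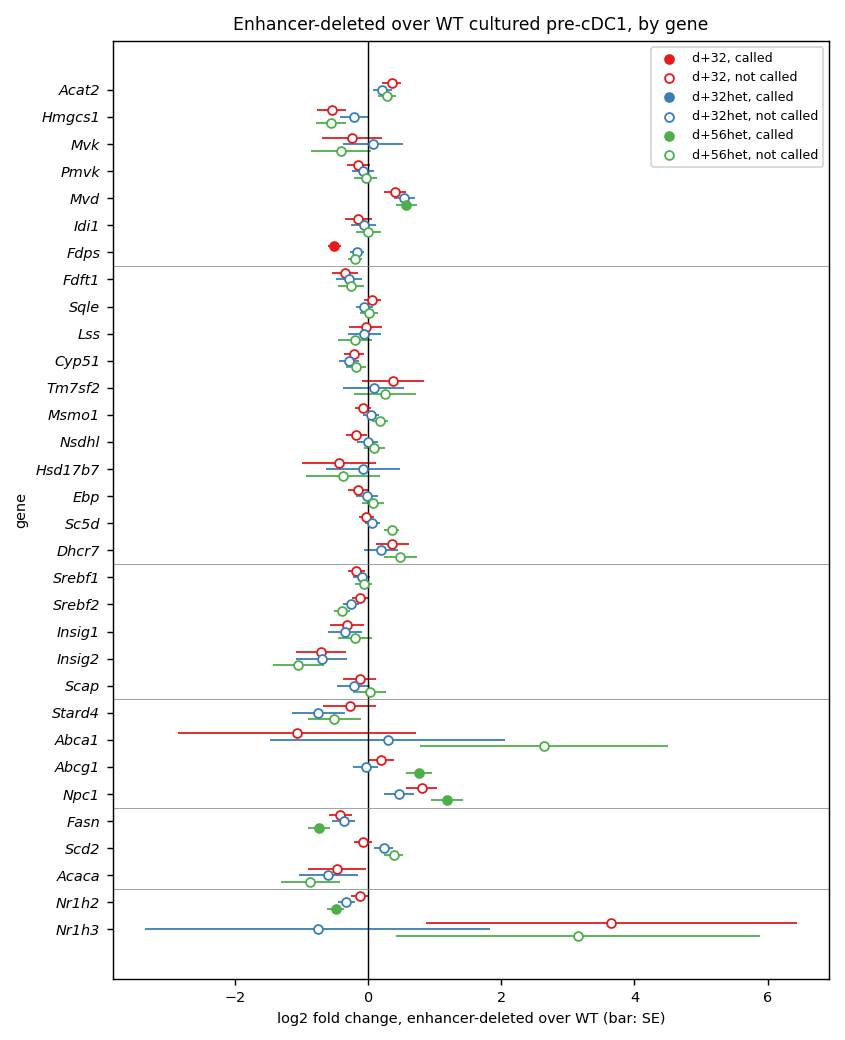
Points are log2 fold changes over the same 3 WT pre-cDC1 libraries, with bars of 1 SE, for d+32, d+32het and d+56het pre-cDC1s in each of the 32 genes. The called enzyme values are Fdps at -0.51 in d+32 and Mvd at 0.57 in d+56het, Npc1 lies at 0.80, 0.46 and 1.18, and the wide bars of Abca1 and Nr1h3 reflect counts near 0.

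Markers moved with genotype as well. The cDC2 list (8 genes) summed to 2066 to 2561 CPM in d+32, 1301 to 1383 CPM in d+32het and 1744 to 2142 CPM in d+56het, against 418 to 522 CPM in WT pre-cDC1s, with 8 of 8 higher by the test in each. The cDC1 list summed to 290 to 343 CPM in d+32, 436 to 658 CPM in d+32het and 279 to 313 CPM in d+56het, against 1768 to 2096 CPM in WT. Mast cell and basophil markers summed to 153 to 462 CPM in d+32, 8.38 to 28.2 CPM in d+32het and 8.43 to 23 CPM in d+56het, against 1.7 to 13.2 CPM in WT. The pDC list summed to 740 to 777 CPM in d+32, 1067 to 1321 CPM in d+32het and 1850 to 2763 CPM in d+56het, against 296 to 407 CPM in WT, and 3 of its 5 tested genes were called higher in d+56het. Proliferation genes summed to 2048 to 2238 CPM in d+32, 1914 to 2223 CPM in d+32het and 1437 to 1629 CPM in d+56het, against 2293 to 2450 CPM in WT, and 6 of 15 were called lower in d+56het. The part of these lists in the lipid gene values was not tested. In cultured cDC2s, which the cDC2 list marks, Npc1 and Abcg1 averaged 19.8 ± 2.9 and 43.0 ± 2.34 CPM (SD, n = 3). Of the other genes called in d+56het, Fasn had 83.9, 81.2 and 65.4 CPM in cultured cDC2s. Mvd, higher in d+56het than in WT, had 17.7, 19.8 and 20 CPM there. Nr1h2, lower in d+56het than in WT, had 464, 386 and 447 CPM there.

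Between deleted genotypes, 0 of the 32 genes were called for d+32 against d+32het, where 0.0689% of the 11604 genes tested were called. There were 0 higher and 2 lower at an unadjusted p under 0.05, and DESeq2 called 0, where it called 259 of the 11604 genes. Fdps was at -0.34 (SE 0.10, adjusted p = 0.378). For d+56het against d+32het 0 of the 32 were called by edgeR, where 0.526% of the genes were called, with 3 higher and 1 lower at an unadjusted p under 0.05 and 1 called by DESeq2. Over all 11604 genes DESeq2 called 697 in that comparison. Abcg1 was at 0.80 (SE 0.19, adjusted p = 0.103) and Npc1 at 0.73 (adjusted p = 0.212).

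The transduced cDC1s show the same genes when IRF8 was supplied by retrovirus. In d+56 cDC1s given IRF8, 0 of the 32 genes were called against WT cDC1s given MSCV, where 1.65% of the 11620 genes tested were called. There were 0 higher and 6 lower at an unadjusted p under 0.05, a share not computed over all genes. DESeq2 called 3 of the 32, all lower, where it called 914 of the 11620 genes. The median difference was -0.20, with 27 of the 32 negative, against -0.01 over all genes tested. In d+32 cDC1s given IRF8, 0 were higher and 1 lower, where 2.07% of the 11620 genes tested were called, and the median difference was -0.10, against 0.02 over all genes tested. The summed level of the 18 enzymes was 786 to 844 CPM in d+56 and 862 to 869 CPM in d+32 cDC1s given IRF8, against 1005 to 1228 CPM in WT cDC1s given MSCV.

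Fdps had 231, 239 and 203 CPM in d+56 and 187, 253 and 211 CPM in d+32 cDC1s given IRF8, against 311, 338 and 418 CPM in WT cDC1s given MSCV. All 6 libraries of the deleted genotypes lay below the 3 WT libraries. The fall in d+32 was 0.72 on the log2 scale (SE 0.14, edgeR adjusted p = 0.0427). Among fits that left out 1 library, the call was kept only without d+32 replicate 2. Over all settings tried, the adjusted p reached 0.116. The d+56 difference was -0.67 (SE 0.14, adjusted p = 0.0588) and did not pass. Hmgcs1 had 104, 122 and 126 CPM in d+56 and 150, 111 and 177 CPM in d+32 cDC1s given IRF8, against 155, 166 and 182 CPM in WT cDC1s given MSCV. Its differences of -0.52 (adjusted p = 0.178) and -0.21 (adjusted p = 0.604) did not pass, and only the d+56 libraries lay wholly below WT. Srebf2, at -0.05 in d+56 and 0.02 in d+32, did not pass. Acat2 averaged 25.6 ± 2.52 CPM in d+56 and 25.4 ± 5.54 CPM in d+32 cDC1s given IRF8, and 33.5 ± 1.94 CPM in WT cDC1s given MSCV (SD, n = 3 each), without passing. Both comparisons share the WT libraries. In both, the deletion and the vector (IRF8 or MSCV) change together, so their effects cannot be told apart.

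**Figure D5:**
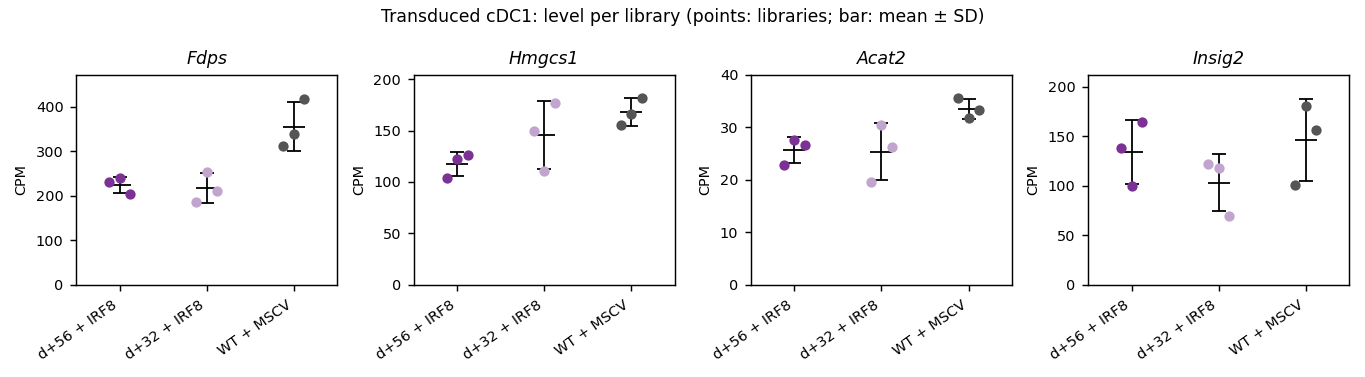
Points are libraries and bars the mean ± SD in CPM, on axes that start at 0, for Fdps, Hmgcs1, Acat2 and Insig2 in d+56 and d+32 cDC1s given IRF8 and WT cDC1s given MSCV (3 libraries each). Fdps points of the deleted genotypes, 187 to 253 CPM, all lie below the WT points, 311 to 418 CPM, while Insig2 overlaps.

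Between the rescued genotypes, d+56 against d+32, 0 of the 32 genes were called by edgeR, where 1.05% of the 11620 genes tested were called, with 2 higher and 3 lower at an unadjusted p under 0.05 and 0 by DESeq2. Over all 11620 genes DESeq2 called 741. Fdps was at 0.05 (adjusted p = 0.941). These groups also differ in other ways: the cDC2 list summed to 423 to 519 CPM in d+56 and 582 to 999 CPM in d+32, against 157 to 240 CPM in WT, and proliferation genes to 1552 to 1832 CPM in d+56 and 1521 to 1706 CPM in d+32, against 1964 to 2187 CPM in WT. Their part in the Fdps values was not tested.

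Genes whose pattern was most like that of Sqle, the squalene epoxidase, were named by Pearson's correlation over the 17 group means of log2(CPM + 1), among 9762 genes with a group mean of at least 10 CPM. The 10 most alike were Gm38481 (0.98), Idi1 (0.98), Cyp51 (0.97), Msmo1 (0.96), Maco1 (0.93), H2aw (0.93), Aacs (0.92), Hmgcs1 (0.92), Ctnnd2 (0.91) and Gpr141 (0.90). Of these, 4 belong to the 32 genes, and 12 of the 32 were among the 100 most alike of the 9762. Sqle is the reference, and Tm7sf2, Abca1 and Nr1h3 fell below the 10 CPM limit, so these were not ranked. At the other end Scap was at -0.81, rank 9731. Insig2 (-0.29) and Abcg1 (-0.05) were the other members with a negative value. Aacs is an acetoacetyl-CoA synthetase. The group means share depth and preparation, and the values are a description. Sqle itself had its lowest group mean in primary MDPs, 19.9 ± 3.6 CPM (SD, n = 3), and cultured WT pre-cDC1s stood at 55.5 ± 0.664 CPM (SD, n = 3).

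Other genes of lipid metabolism were followed from a list of 43. In cultured against primary MDPs, 8 of 40 tested rose and 1 fell, where 8.28% of all genes tested were called, and the desaturases Fads2 and Fads1 rose by 1.25 (SE 0.13, edgeR adjusted p = 0.000267) and 1.23 (SE 0.22, adjusted p = 0.00649) on the log2 scale. In cultured against marrow pre-cDC1s, 7 of 40 rose and 3 fell, where 21.9% of all genes were called, with Pcyt2, a phosphatidylethanolamine enzyme, at 1.27 (SE 0.18), Aacs at 0.97 (SE 0.15) and Fads2 at 0.87 (SE 0.13). In cultured pre-cDC1s against CDPs, 8 of 41 rose and 7 fell, where 23.3% of all genes were called, among them Cyp27a1, a sterol hydroxylase, which rose by 1.87 (SE 0.23, adjusted p = 6.37e-05).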

How the data were processed

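Per the labels' protocols, each library began with RNA of about 1500 to 10000 cells, which was reverse transcribed and amplified (SMART-Seq HT) and then tagmented (Nextera XT). The authors deposited expected counts, 1 value per gene and library, per the file headers. STAR 2.7.7a, RSEM 1.3.3, Picard 2.25.0 and mm10 or GRCm38 as genome are named in the submitters' processing notes, with no role or order. The annotation and any removal of duplicate reads are not given in the sources used here. Strand was not marked, so reads of overlapping and antisense genes cannot be separated.

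Of the 21000 values in a file, 22 to 66 were not whole, and all were rounded. The closest pair of libraries in a group had a chi-square per degree of freedom of 18.4, far above sampling noise. R 4.3.3 with edgeR 4.0.16 (quasi-likelihood F test, TMM, its default low-count filter), limma 3.58.1 and DESeq2 1.42.0 was used. Related groups were fitted together, p-values were adjusted by Benjamini-Hochberg over all genes of a fit, and "called" means an adjusted p under 0.05. An adjusted p is from edgeR unless DESeq2 is named. CPM values use TMM over all libraries. SE is the size of the log2 fold change over the root of F. Where groups are said not to overlap, the share of all genes without overlap was not computed. Nor was the share of all genes at an unadjusted p under 0.05, so counts at that threshold have no background here. The fits were also run on simulated counts with 200 changed genes. The share recovered is not given here, so how often small differences are missed is left unstated.

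The members and all lists were chosen with earlier results of these data known. All members are described by role. Those called are named with fold changes (up to 6 per direction in full), per-library values go to those called most often, up to 4 called genes of a wider pathway list are named per comparison by smallest adjusted p, and the 10 genes most like Sqle are named. Per-library values of Mvd, Npc1, Abcg1, Lss and a few others were added after their values were seen. Alternatives were DESeq2, DESeq2 size factors in edgeR, no filter, a block for the replicate number, fits of the compared groups alone, each library left out (54 fits), the libraries of conflicting label included by title, and replicates 1 and 2 alone in fits with primary cells. Results for a few genes of the wider list are left out here.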

Additional observations from a re-analysis of the deposited data

Results flagged for a closer look

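Mvd was the 1 gene whose difference between pre-cDC1 and MDP, in culture minus that in marrow, passed the test of the difference itself, at -1.73 on the log2 scale (SE 0.36, edgeR adjusted p = 0.0136). In culture the 3 pre-cDC1 libraries (15.9, 17.2 and 22.2 CPM) lay above the MDP libraries (11.7, 9.86 and 9.99 CPM). In marrow the pre-cDC1 libraries (18.4, 17.3 and 20.3 CPM) lay above the MDP libraries (4.6, 2.11 and 2.9 CPM). The groups did not overlap in either source.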

How the results depend on the processing

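Of 72 called values over the 17 comparisons, 43 stayed called under every setting tried, 29 lost the call at least once and 0 reversed, and 45 stayed called without any 1 library. In cultured against primary cells, 14 of 16 calls in MDPs and 11 of 15 in pre-cDC1s stayed called throughout. Replicate counts of 3, and in one arm 1, limit what can be called, and genes near 0 counts such as Abca1 and Nr1h3 carry wide errors. The median of all genes moved by at most 0.04 (log2) between scalings.

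With DESeq2 in place of edgeR, the number of the 32 genes called was 2 for d+32, 1 for d+32het and 9 for d+56het against WT pre-cDC1s, 1 for d+56het against d+32het, 3 for d+56 and 3 for d+32 cDC1s given IRF8 against WT, 4 for spleen against marrow and 7 for the interaction. In the same order, DESeq2 called 1130, 1293, 2427 and 697 of all 11604 genes and 914 and 1109 of 11620. It called 1089 of 13161 for spleen and 2430 of 12043 for the interaction. Counts over all genes thus also rose from edgeR to DESeq2. Fitting only the groups compared gave 3 for d+32, 3 for d+56het, 0 for rescued d+32 against WT, 0 for cDC1 against pre-cDC1 and 0 for spleen against marrow. For cDC1 against pre-cDC1, 1 was called with DESeq2 size factors, 2 with no filter and 0 with the conflicting libraries kept. With primary groups at replicates 1 and 2, marrow pre-cDC1 against MDP gave 5, spleen against marrow 2 and the interaction 9. Over all genes these were 825, 624 and 2409. With only the groups compared, d+32 and d+56het against WT gave 1098 and 1094 over all genes.

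Deviations of same-numbered libraries from their group means correlated between -0.17 and 0.19. The lowest value was in replicate 3 of marrow pre-cDC1s against MDPs and the highest in replicate 3 of splenic against marrow pre-cDC1s. In the list of samples the replicate 3 libraries stand apart from replicates 1 and 2, and whether they form a batch is not stated. With the replicate block, 3 were called for d+56het, 0 for rescued d+32 against WT, 1 for cDC1 against pre-cDC1, 4 for marrow pre-cDC1 against MDP and 0 for spleen against marrow.

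With 1 library left out, the count ran from 0 to 1 for d+32 against WT, 1 to 3 for d+56het against WT, 0 to 1 for rescued d+56 against WT, 0 to 1 for rescued d+32 against WT, 0 to 1 for cDC1 against pre-cDC1, 3 to 7 for marrow pre-cDC1 against MDP, 0 to 4 for spleen against marrow, 14 to 16 for cultured against primary MDP, 12 to 16 for cultured against marrow pre-cDC1 and 1 to 7 for the interaction. Over all genes, DESeq2 called 1130 genes for d+32 against WT, where edgeR called 524, and 1892 for cultured against primary MDPs, where edgeR called 997. By DESeq2 there were also 259 for d+32 against d+32het, where edgeR called 8, and 545 for CDP against MDP, where edgeR called 138.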

Other observations

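Of the wider list of 43 genes, 7 of 41 tested rose and 7 fell by edgeR in cultured cDC2s against CDPs, a share near the 33.1% of all genes called in that comparison. Cyp27a1, a sterol hydroxylase, rose by 2.55 on the log2 scale (SE 0.23, adjusted p = 3.85e-06). The fatty acid elongase Elovl6 fell by 0.90 (SE 0.11) and the desaturase Fads2 by 0.66 (SE 0.10).

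In marrow pre-cDC1s against primary MDPs, Cyp27a1 rose by 2.61 (SE 0.34, adjusted p = 0.00421), Stard3, a lysosomal sterol carrier, by 0.94 (SE 0.17) and Rxra, the partner of the liver X receptors, by 2.66 (SE 0.62). In splenic against marrow pre-cDC1s, Apoe, a lipoprotein component, rose by 3.65 (SE 0.45, adjusted p = 0.00728) and Fads2 fell by 2.17 (SE 0.36), which were the 2 calls among 42 genes, where 1.88% of all genes were called.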
